A study of Mus musculus with 24 samples.

Results

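The 10 genes described here mark dendritic cells or encode the surface ligands with which these cells stimulate or restrain T cells: Itgax, Cd83, Itgae, Xcr1, Flt3, Cd80, Cd86, Pdcd1lg2, Cd274 and Batf3. All probe sets that the platform annotation assigned to 1 of these genes alone were taken, which gave 15 of 45037 probe sets, for 10 of 18193 genes. Of the 15, 11 probe sets passed a filter on low signal, and they covered all 10 genes; the other 4, for Cd80 and Cd86, are given by their range. The study measured total RNA from mouse lung in 4 groups of 3 samples: wild type given PBS, wild type given HDM, IL-13 KO given PBS and IL-13 KO given HDM. PBS usually stands for phosphate-buffered saline and HDM for house dust mite, an allergen that lodges in household dust and is used to provoke asthma-like airway inflammation in mice. KO denotes a strain without IL-13, a cytokine of type 2 immunity; the labels do not state its allele, genetic background, age or sex, or the amount, route and timing of HDM. Each sample was hybridised to a set A and a set B array. The design asks what HDM does to each gene in the lung and whether that depends on IL-13.

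Dendritic cells take up antigen in tissues such as the airway wall, carry it to lymph nodes and present it to T cells. A conventional type 1 subset depends on the transcription factor Batf3 and carries the chemokine receptor Xcr1 and, in lung, the integrin chain CD103 encoded by Itgae; a type 2 subset depends on Irf4. T cells need a second signal from CD80 and CD86, which bind CD28, and are restrained when PD-L1 (Cd274) or PD-L2 (Pdcd1lg2) binds PD-1. Few of these markers belong to dendritic cells alone: in mouse lung Itgax, which encodes CD11c, is also carried by alveolar macrophages, CD103 by T cells in the epithelium, and PD-L2 and CD86 by macrophages. The RNA came from whole tissue, so more cells of a type and more RNA per cell cannot be told apart for any gene below.

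The arrays had been scaled to a common level, and their median signal was 69.5 to 77.7 for set A and 83.5 to 93.7 for set B. Samples of a group correlated with Spearman's rho between 0.962 and 0.980 for set A and between 0.887 and 0.927 for set B. The epithelial genes Scgb1a1, Ager and Sftpc had strong signal in all 12 samples (Sftpc by its brightest probe set; another Sftpc probe set lay under the filter). Il13 lay under the filter (3.30 to 29.9 over all samples), so it did not check the genotype labels. Tnnc2, a skeletal muscle gene, stood out in 3 wild-type samples, PBS replicate 2 (413) and HDM replicates 1 (198) and 2 (988), and was at most 6.97 elsewhere. The labels do not tie the replicates to separate mice, so the p-values cover only differences among the samples at hand, which may be technical.

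HDM was followed by higher signal of the dendritic cell markers Itgax and Cd83, the checkpoint ligand Pdcd1lg2 and the transcription factor Batf3 in both genotypes. In IL-13 KO lung the growth factor receptor Flt3, the costimulatory ligand Cd86 and the chemokine receptor Xcr1 rose as well. The Xcr1 call held in 8 of 22 alternative settings. For Flt3, Cd86 and Xcr1 the difference between the genotypes' HDM effects did not pass the test (limma adjusted p = 0.66, 0.78 and 0.82). KO PBS had the lowest group mean for each of them. Itgae, Cd80 and Cd274 did not pass the test in either genotype. Signals were tested with limma on log2(signal + pseudocount) (on which the change of a dim probe set comes out too small), and a probe set was called at an adjusted p under 0.05 over all 31496 probe sets tested. In wild type 4 of 11 member probe sets were called higher and 0 lower, where 3.85% of all probe sets tested were called higher and 7.7% either way. In KO 7 of 11 were called higher and 0 lower, against 4.24% higher, 4.31% lower and 8.56% either way. The median log2 effect over the 11 was 0.54 in wild type and 1.09 in KO, and over all probe sets tested it was -0.01 and -0.00. A probe set with high signal in 1 group alone passes the filter more easily, so these counts describe the 11 probe sets and not all 15. The members were also chosen with earlier results of these data known, so the counts are no test of dendritic cell genes. HDM and PBS samples did not overlap, with HDM higher, for 7 of 11 in wild type (11.1% of all probe sets tested) and 10 of 11 in KO (14.6%). The 4 genes called in wild type rose under every alternative setting that tested them, by at least 2.22 (Itgax), 1.81 (Cd83), 1.23 (Pdcd1lg2) and 1.30 (Batf3). Among these settings, leaving out the 3 samples with muscle signal kept 1 wild-type HDM sample, so it says little of their spread. RNA integrity, read from the actin probe sets of set A as 5' over 3' signal, moved with treatment in KO: the ratio was 0.748 to 0.854 after PBS and 0.464 to 0.656 after HDM, without overlap. Without the 2 samples with the lowest ratio, 1 of them KO HDM replicate 1, the KO calls of Flt3 (adjusted p = 0.013), Cd86 (0.019) and Xcr1 (0.037) held and that of Batf3 did not (0.080); beyond this the part of RNA integrity was not tested.

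**Figure D1:**
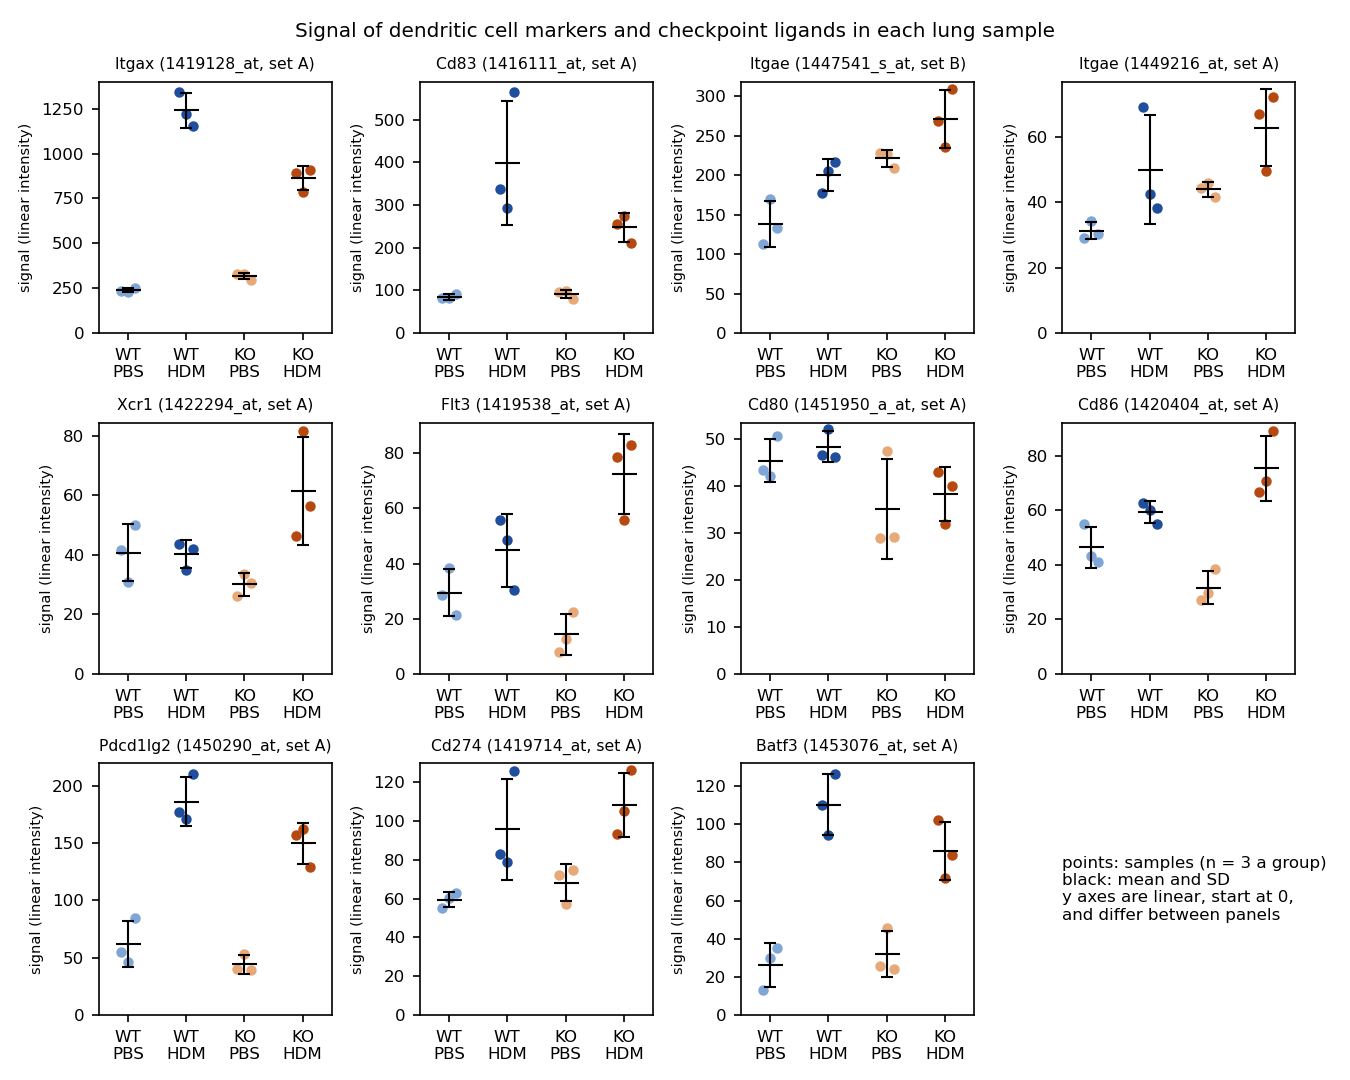
Signal (linear intensity, vertical axes from 0 and different between panels) of the 11 member probe sets that passed the filter, in each sample of wild type (WT) and IL-13 KO lung given PBS or HDM. Points are samples, and black lines are the mean and SD of 3 samples; the mean of Itgax was 239 and 1241 in wild type, and 317 and 862 in KO.

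Itgax, the alpha chain of an integrin that binds complement fragments, had signals of 235, 231 and 249.8 in the wild-type PBS samples and 1346, 1221 and 1156 in the wild-type HDM samples. In KO it had 327, 328 and 296 after PBS and 894, 786 and 907 after HDM. All 4 groups stood apart, in the order wild-type PBS, KO PBS, KO HDM and wild-type HDM. The HDM effect was 2.34 ± 0.10 (log2 ± SE, n = 3 against 3; limma adjusted p = 3.6e-07) in wild type, a 5.07-fold difference, and 1.42 ± 0.10 (adjusted p = 1.1e-05), or 2.68-fold, in KO. Both calls held under all 23 alternative settings tried.

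The HDM effect on Itgax was smaller in KO than in wild type, by -0.92 ± 0.15 (95% interval -1.24 to -0.60; limma adjusted p = 0.047). This was 1 of 11 member probe sets called for the difference of the effects, where 0.0857% of all probe sets tested were called, 0.0826% lower and 0.00318% higher. The groups differed at both ends: KO was higher than wild type after PBS, 317 ± 18.2 against 239 ± 9.69 (SD, n = 3), and lower after HDM, 862 ± 66.2 against 1241 ± 96.6. Neither of these comparisons passed the test on its own (0.40, adjusted p = 0.46, and -0.52, adjusted p = 0.060). The size of the difference in effect was -0.97 to -0.80 under every alternative, but its adjusted p ranged from 0.017 to 0.49 and was under 0.05 in 2 of 22 alternatives. It was not called after any 1 sample was left out (0.081 to 0.16), nor without the 3 samples with muscle signal (0.49), nor with the replicate number as a block (0.13). The actin ratio was lower in KO HDM (0.464 to 0.656) than in wild-type HDM (0.695 to 0.832) on set A, without overlap; its part in this difference was not tested beyond leaving out the 2 samples with the lowest ratio, which gave -0.93 (adjusted p = 0.30).

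Cd83 encodes a surface protein of mature dendritic cells and activated B cells. Its signals in wild type were 80.9, 81.0 and 91.7 after PBS and 337, 293 and 565 after HDM. In KO they were 97.1, 97.8 and 79.6 after PBS and 256, 275 and 211 after HDM. The PBS groups overlapped, both HDM groups lay above them, and every wild-type HDM sample was above every KO HDM sample. The HDM effect was 2.09 ± 0.22 in wild type (adjusted p = 1.0e-04) and 1.37 ± 0.22 in KO (0.0022). The effects differed by -0.72 (95% interval -1.39 to -0.06), which did not pass the test (adjusted p = 0.85).

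Batf3 encodes the transcription factor needed for type 1 conventional dendritic cells, and it is also made by activated T cells. Its signals in wild type were 13.3, 30.1 and 35.2 after PBS and 110.3, 94.2 and 126 after HDM. In KO they were 25.9, 45.6 and 24.3 after PBS and 102, 72.0 and 83.8 after HDM. In each genotype HDM samples lay above PBS samples, while the genotypes overlapped under either treatment. The HDM effect was 1.88 ± 0.30 in wild type (limma adjusted p = 0.0021) and 1.28 ± 0.30 in KO (0.019). The KO call was lost when replicate 1 or 3 of KO PBS (0.071 or 0.077) or of KO HDM (0.074 or 0.058) was left out, and without the 2 samples with the lowest actin ratio (0.080).

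Flt3 encodes the receptor for the growth factor that drives dendritic cell development. Its signals in wild type were 28.6, 38.5 and 21.5 after PBS and 55.9, 48.4 and 30.3 after HDM, which overlapped. In KO they were 7.90, 12.7 and 22.4 after PBS and 78.7, 55.9 and 83.0 after HDM, which did not. The HDM effect was 0.50 ± 0.30 in wild type (95% interval -0.16 to 1.16; limma adjusted p = 0.41) and 1.94 ± 0.30 in KO (adjusted p = 0.0021), and the KO call held under all 22 alternatives. The difference of 1.44 ± 0.43 (95% interval 0.50 to 2.38) had an unadjusted p of 0.0057 and did not pass adjustment (0.66). Xcr1, the chemokine receptor that guides type 1 dendritic cells to cells that make Xcl1, had signals of 41.5, 30.7 and 49.9 in wild type after PBS and 43.6, 35.0 and 42.1 after HDM. In KO these were 26.1, 33.6 and 30.4 after PBS and 46.4, 81.6 and 56.3 after HDM. The wild-type groups overlapped (effect 0.00 ± 0.24, 95% interval -0.52 to 0.52), and in KO the HDM samples were higher (0.86 ± 0.24, limma adjusted p = 0.044). That KO call held in 8 of 22 alternatives; it was lost without wild-type PBS replicate 1, any 1 of the wild-type HDM or KO PBS samples, or KO HDM replicate 2 or 3 (0.055 to 0.16), and with the replicate number as a block (0.070). The difference between genotypes did not pass the test (0.86, 95% interval 0.12 to 1.59, adjusted p = 0.82).

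Itgae, the integrin chain CD103, had a probe set on each array set. On set B its signals in wild type were 113, 170.0 and 133 after PBS and 177, 205 and 217 after HDM, and in KO 228, 227 and 209 after PBS and 269, 236 and 309 after HDM. On set A they were 29.3, 34.3 and 30.4, then 69.2, 42.5 and 38.4, in wild type, and 44.4, 46.0 and 41.6, then 66.9, 49.6 and 72.2, in KO. On both arrays the HDM samples lay above the PBS samples of their genotype, and KO PBS lay above wild-type PBS. The HDM effects were 0.51 and 0.54 in wild type (limma adjusted p = 0.080 and 0.21) and 0.27 and 0.44 in KO (0.34 and 0.28), so neither probe set was called; without wild-type PBS replicate 2 the set B effect in wild type was 0.66 and called (0.035). KO exceeded wild type after PBS by 0.65 (95% interval 0.30 to 1.0) on set B and 0.41 (-0.09 to 0.91) on set A, which did not pass adjustment (0.42 and 0.79).

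Cd86 and Cd80 are the costimulatory pair that binds CD28. Cd86 had signals of 55.1, 43.3 and 41.2 in wild type after PBS and 62.8, 60.1 and 55.0 after HDM, which overlapped. In KO it had 27.0, 29.8 and 38.3 after PBS and 66.7, 70.8 and 89.1 after HDM, the lowest and the highest of the 4 groups. The HDM effect was 1.09 ± 0.20 in KO (limma adjusted p = 0.0054), called in all 22 alternatives, and 0.32 ± 0.20 in wild type (95% interval -0.12 to 0.75; adjusted p = 0.43). The difference of the effects, 0.78 (95% interval 0.16 to 1.39), did not pass the test (adjusted p = 0.78). Cd80 had signals of 43.2, 42.0 and 50.6 in wild type after PBS and 46.5, 52.0 and 46.2 after HDM. In KO it had 29.0, 47.3 and 29.0 after PBS and 42.8, 31.8 and 39.9 after HDM. Its groups overlapped within each genotype, with effects of 0.08 (95% interval -0.39 to 0.55) in wild type and 0.12 (-0.35 to 0.59) in KO. The other 3 probe sets of Cd80 and the second of Cd86 lay under the filter, with means over the 12 samples of 6.23 to 15.4, and none was called in any comparison when limma was run without the filter (adjusted p = 0.49 to 1.0).

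Pdcd1lg2 and Cd274 encode the ligands of PD-1. Pdcd1lg2 had signals of 55.3, 46.1 and 85.0 in wild type after PBS and 177, 171 and 211 after HDM. In KO it had 40.1, 53.2 and 39.0 after PBS and 157, 163 and 129 after HDM. Every HDM sample lay above every PBS sample, and each wild-type HDM sample lay above each KO HDM sample (-0.30 for KO against wild type, adjusted p = 0.79). The HDM effect was 1.52 ± 0.22 in wild type (limma adjusted p = 0.0012), or 2.86-fold, and 1.62 ± 0.22 in KO (8.7e-04), or 3.08-fold; both calls held in all 23 alternatives. The effects differed by 0.10, with a 95% interval of -0.57 to 0.78. Cd274 had signals of 55.1, 60.4 and 62.9 in wild type after PBS and 82.9, 78.9 and 126 after HDM, and in KO 72.1, 57.3 and 75.0 after PBS and 93.3, 105 and 126 after HDM. HDM samples were above PBS samples in both genotypes, by 0.60 ± 0.21 in wild type (adjusted p = 0.11) and 0.61 ± 0.21 in KO (0.095), which did not pass the test. Both were called when each array set was adjusted on its own (0.040 and 0.033).

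**Figure D2:**
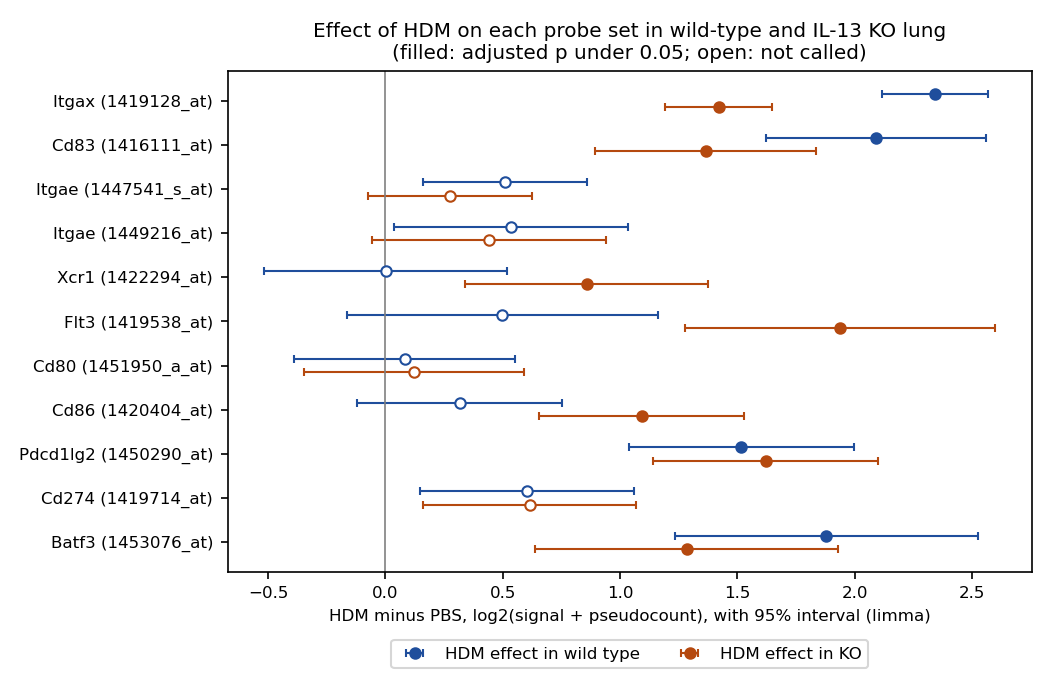
HDM effect (HDM minus PBS on the log2(signal + pseudocount) scale, horizontal axis) of each member probe set in wild type (blue) and IL-13 KO (orange), with 95% intervals from limma; filled points passed the test and open points did not. Intervals of the genotypes were apart for Itgax (2.34 against 1.42) and Flt3 (0.50 against 1.94), though the difference passed the test for Itgax and not for Flt3, and they overlapped for Pdcd1lg2 (1.52 against 1.62) and Cd274 (0.60 against 0.61).

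Between genotypes at the same treatment no member was called. After PBS 0 of 11 probe sets passed limma's test (4 at an unadjusted p under 0.05), where 0.0381% of all probe sets did, and after HDM 0 of 11 (3 at an unadjusted p under 0.05), where 0.457% did. The KO PBS samples did not overlap the wild-type PBS samples for 3 probe sets that were higher (Itgax and both of Itgae; 5.5% of all probe sets) and 1 that was lower (Cd86; 5.71%). After HDM 3 were higher in KO without overlap (Itgae on set B, Xcr1 and Cd86; 7.63%) and 4 lower (Itgax, Cd83, Cd80 and Pdcd1lg2; 7.29%). Of the pair of HDM groups, Cd83 had the largest difference (-0.62, adjusted p = 0.41) among the members that were lower and Flt3 among those that were higher (0.63, 0.61), the Flt3 groups overlapping. Itgax after HDM was called with a pseudocount of 32 (adjusted p = 0.049) and with each array set adjusted on its own (0.026).

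Upstream sequence was taken for the members whose HDM effect was called in both genotypes, and for Cd274 as the neighbour of Pdcd1lg2, to show what stands before genes that moved together. RefSeq windows of 250 bases before the start (GRCm38.p6) matched 7 of the 10 members and not Cd83, Itgae or Cd86. Both strands were searched for 6 motifs. A STAT6 type motif was TTC and GAA with any 4 bases between them, the spacing that STAT6, the factor activated by IL-4 and IL-13, is known to prefer, and a GAS motif, of the interferon gamma pathway, was TTC and GAA with any 3 between them. The others were ISRE (GAAA, any 2 bases, GAAA), PU.1 (GAGGAAGT), AP-1 (TGANTCA) and a kappa B type (GGG, any 2 bases, TTTCC). The windows of Itgax (chr7:128129300-128129549, plus strand), Pdcd1lg2 (chr19:29410669-29410918, plus strand), Cd274 (chr19:29367188-29367437, plus strand) and Batf3 (chr1:191098164-191098413, plus strand) follow 5′ to 3′, each ending just before the start, with matches in capitals.
Itgax: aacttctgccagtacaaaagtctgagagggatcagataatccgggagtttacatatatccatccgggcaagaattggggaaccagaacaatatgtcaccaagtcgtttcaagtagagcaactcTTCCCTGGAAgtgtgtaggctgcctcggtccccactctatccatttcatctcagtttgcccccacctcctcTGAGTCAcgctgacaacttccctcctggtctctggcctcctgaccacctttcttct
Pdcd1lg2: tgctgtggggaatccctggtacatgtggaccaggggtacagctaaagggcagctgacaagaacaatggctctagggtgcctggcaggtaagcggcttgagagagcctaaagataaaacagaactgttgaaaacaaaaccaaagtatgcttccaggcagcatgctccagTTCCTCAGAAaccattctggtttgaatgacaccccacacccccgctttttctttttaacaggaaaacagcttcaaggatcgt
Cd274: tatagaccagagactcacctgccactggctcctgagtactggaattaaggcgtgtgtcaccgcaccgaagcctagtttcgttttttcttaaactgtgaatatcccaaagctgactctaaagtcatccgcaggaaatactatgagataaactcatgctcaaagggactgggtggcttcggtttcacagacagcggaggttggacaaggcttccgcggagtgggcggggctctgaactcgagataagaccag
Batf3: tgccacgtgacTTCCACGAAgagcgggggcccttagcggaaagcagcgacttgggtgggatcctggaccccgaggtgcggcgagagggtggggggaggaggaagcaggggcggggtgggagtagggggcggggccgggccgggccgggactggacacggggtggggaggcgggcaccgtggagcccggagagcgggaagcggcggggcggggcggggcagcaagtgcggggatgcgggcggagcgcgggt
The STAT6 type motif was present in the windows of Itgax, with its first letter 127 bases before the start, and Pdcd1lg2, 82 bases before it. Of 32851 RefSeq windows 5.85% held it. Itgax also held the AP-1 motif 56 bases before its start (6.75% of windows), as did Cd80 at 42, and Batf3 held the GAS motif 239 bases before its start (7.02%). Cd274, whose start lies 43.5 kb from that of Pdcd1lg2, Xcr1 and Flt3 held none of the 6 motifs in this window. These are matches of letters only, and whether any factor binds there was not tested.

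Other genes of dendritic cells also rose after HDM. With each gene read by its brightest probe set, 5.39% of 14477 genes were called higher and 5.15% lower in wild type, and 5.69% and 5.3% in KO. The list counts stand beside these shares, and 1 gene called of 8 or 11 is near them. The lists were chosen with earlier results of these data known, so a count above the share is a description and not a test. Of 11 type 2 genes tested 5 were higher and 2 lower in wild type and 6 higher and 1 lower in KO, with a median log2 effect of 0.74 and 0.60; the median over all genes was -0.00 and 0.01. Irf4, the transcription factor of this subset, went from a mean of 37.2 to 140 in wild type (1.72 ± 0.22, limma adjusted p = 4.4e-04) and from 41.7 to 226 in KO (2.24 ± 0.22, 7.1e-05); another Irf4 probe set had 0.75, called, and 0.58, not called. The lectin genes Clec10a (1.35 and 1.88) and Clec4a2 (1.45 and 1.39) rose in both genotypes, and Cd209a (0.53 and 1.04) was called in KO. Clec10a in wild type was not called without the 3 samples with muscle signal (adjusted p = 0.14). Esam, an adhesion gene that endothelium also makes, fell in both genotypes (-0.65 and -0.47), in KO not without any 1 of the KO HDM samples or KO PBS replicate 1 or 2. The other gene that fell in wild type, Klf4 (-0.89), was also named after its value was seen, and was not called without the 3 samples with muscle signal (0.055). Of 8 endothelial markers 6 were lower and 1 higher in wild type and 5 lower and 0 higher in KO. Their summed signal was 7669 to 8390 after PBS and 5033 to 5711 after HDM in wild type, and 7113 to 7972 and 5146 to 5483 in KO; the part of endothelial RNA in the Esam values was not tested.

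Of 12 further type 1 genes 2 were higher in wild type and 4 in KO, and 0 lower, with medians of 0.15 and 0.41. The members that rose were Irf8, the factor that type 1 and plasmacytoid dendritic cells need (0.60 and 0.64), and Wdfy4, needed for cross-presentation (1.15 and 1.12), in both genotypes, and Naaa (0.66) and Cxcr3 (0.99) in KO. Irf8 in wild type was not called without wild-type HDM replicate 3 (limma adjusted p = 0.065), and its second probe set was not called (0.73 and 0.06). Of the other probe sets, that of Wdfy4 was called in KO (1.41) and not in wild type (0.61), and those of Naaa were not called (0.52 and -0.10). Cxcr3, which T cells also carry, was lost when replicate 2 or 3 of either KO group was left out. Type 1 genes that were not called went both ways, among them Zbtb46 (-0.09 and 0.23), Cadm1 (-0.46 and -0.34), Snx22 (-0.39 and -0.20), Id2 (0.56 and 0.30) and Ppt1 (0.29 and 0.52). Of 13 genes of mature, migrating dendritic cells 3 rose in wild type and 2 in KO, and 0 fell. These were the T cell attractants Ccl22 (2.64 ± 0.44, from a mean of 13.5 to 121) and Ccl17 (1.12) with the survival gene Birc3 (0.78) in wild type, and the actin bundler Fscn1 (0.84) and Ccl17 (0.74) in KO. Both KO calls were lost without any 1 of the KO HDM samples or KO PBS replicate 1, Fscn1 also without KO PBS replicate 3 and Ccl17 without KO PBS replicate 2; another probe set of Fscn1 was called (1.16). Ccl22 in KO went from a mean of 23.3 to 51.9. The median over the 13 genes was 0.39 in wild type and 0.32 in KO. Genes not called in either genotype went both ways, among them Ccr7 (-0.23 and -0.08), Traf1 (-0.15 and -0.07), Cd40 (0.49 and 0.21) and Marcksl1 (0.62 and 0.58). Of 11 plasmacytoid genes Spib alone was called, in both genotypes (1.12 and 1.08; lost in KO when replicate 3 of either KO group was left out), and B cells also make it.

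**Figure D3:**
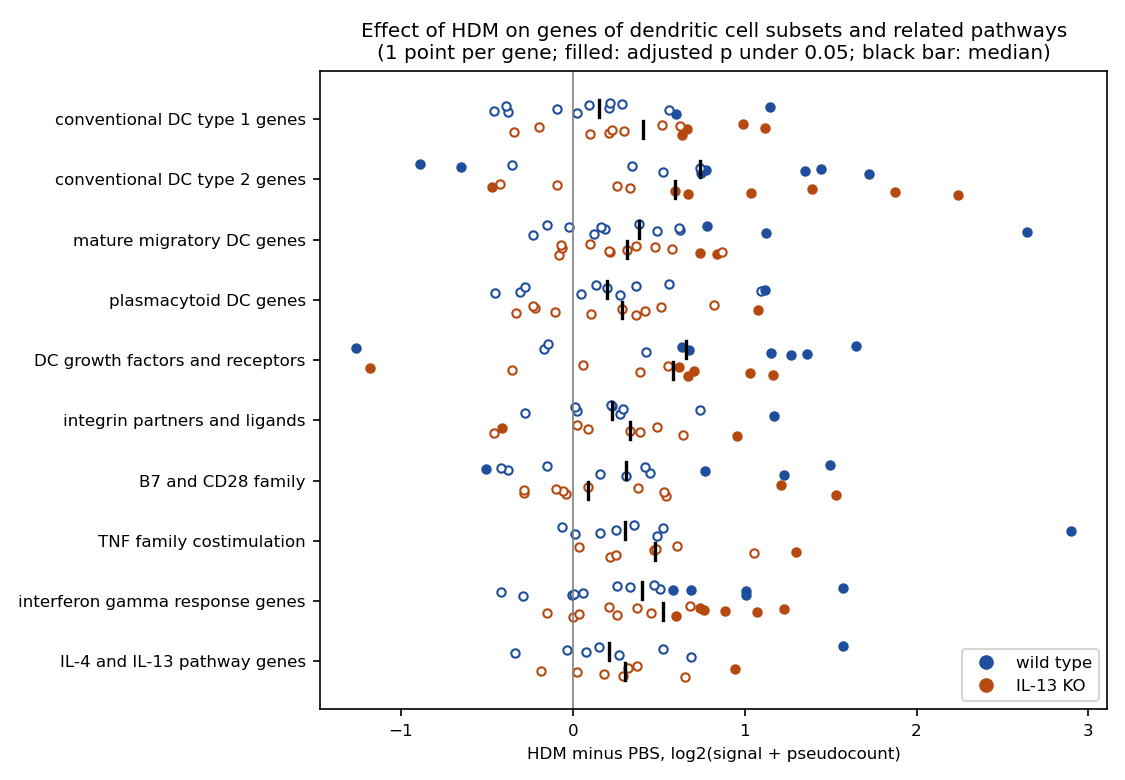
HDM effect (HDM minus PBS, log2(signal + pseudocount), horizontal axis) of every tested gene of 10 lists in wild type (blue) and IL-13 KO (orange), 1 point per gene; filled points passed limma's test and black bars are medians. Type 2 dendritic cell genes and growth factor genes had the highest medians, 0.74 and 0.66 in wild type and 0.60 and 0.59 in KO.

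Among growth factors of dendritic cells and their receptors 6 of 10 tested were higher and 1 lower in wild type, and 5 higher and 1 lower in KO (medians 0.66 and 0.59). The shared signalling chain of the GM-CSF, IL-3 and IL-5 receptors, Csf2rb, went from a mean of 751 to 1924 in wild type (1.36 ± 0.13, limma adjusted p = 4.3e-05) and from 983 to 2218 in KO (1.16 ± 0.13, 1.5e-04). Csf2rb2 (1.16 and 1.03), Csf2ra (1.27 and 0.67) and Csf1r, the M-CSF receptor (0.68 and 0.70), rose in both genotypes, and Ltb (1.65) was called in wild type. Csf1r is also counted among the macrophage and monocyte markers below. The KO call of Csf2ra was lost without any 1 of the KO PBS samples or KO HDM replicate 1 or 3. Kitl, stem cell factor, fell in both (-1.26 and -1.18), and 1 of its 3 other probe sets was called too in each. Xcl1, which encodes the ligand of Xcr1, and Csf2 lay under the filter. Of 9 integrin partners tested 1 was higher and 0 lower in wild type, and 1 higher and 1 lower in KO. The gene that fell was the adhesion ligand Icam1 (-0.41), whose call was lost in 8 of 12 fits that left out 1 sample. Itgb2, the beta chain that pairs with the Itgax product, rose by 1.17 and 0.96, from means of 522 to 1185 and 812 to 1580.4. Itgb7 and Cdh1, the partner and the ligand of CD103, were not called (0.27 and 0.64, and -0.28 and -0.46).

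Receptors that bind the members' products were measured in part. Pdcd1 and Ctla4 lay under the filter, and Cd28 was not called (0.31 and 0.54). The costimulatory receptor Icos, in the same family as Cd28, rose from a mean of 160 to 391 in wild type (1.23 ± 0.12, limma adjusted p = 4.7e-05) and from 202 to 604 in KO (1.53 ± 0.12, 1.3e-05); its second probe set was not called (0.42 and 0.90). A list of B7 and CD28 family genes also held checkpoint genes outside that family, among them Lag3 and Lgals9. Of its 11 genes tested 3 were higher and 1 lower in wild type. Beside Icos, Lag3 (1.5) and Btla (0.77) were higher, and Lgals9 (-0.50) was lower. In KO 2 were higher and 0 lower, Icos and Lag3 (1.21). The wild-type calls of Btla and Lgals9 were each lost without 4 of the 6 wild-type samples left out singly, that of Lag3 without wild-type HDM replicate 1, and that of Lag3 in KO without any 1 KO sample or wild-type HDM replicate 3. Among 8 TNF family genes 1 was called in each genotype, the activation receptor Tnfrsf9: 2.9 ± 0.24 in wild type, from a mean of 35.5 to 308, and 1.30 ± 0.24 in KO, from 66.2 to 170. Its second probe set was not called (0.03 and 0.63), and the effects did not differ past the test (-1.60, adjusted p = 0.22). Over the 10 lists 0 of 104 genes were called by limma for a difference in HDM effect (11 at an unadjusted p under 0.05). With each array set adjusted on its own 1 of the 8 TNF family genes was. After HDM, Icos was called higher in KO than in wild type (0.61 ± 0.12, limma adjusted p = 0.040), where 0.457% of all probe sets tested were called either way. That call held in 2 of 12 fits that left out 1 sample, and the second probe set of Icos was not called (0.39).

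Interferon gamma, which is known to induce Cd274, and IL-4 and IL-13, which are known to induce Pdcd1lg2 in macrophages, act through measured pathways. Of 14 interferon gamma response genes 5 were higher in wild type and 6 in KO, and 0 lower, with medians of 0.40 and 0.53. Ciita, the regulator of MHC class II (1.01 and 1.07), the peptide transporter Tap1 (0.69 and 0.89), the interferon gamma receptor chain Ifngr2 (1.01 and 0.60) and the immunoproteasome gene Psmb8 (0.59 and 0.77) rose in both genotypes. Socs1 (1.57) was called in wild type, and the immunoproteasome gene Psmb9 (1.23) and Igtp (0.74) in KO. The wild-type call of Psmb8 and the KO calls of Ifngr2 and Igtp were each lost in 5 of 12 fits that left out 1 sample. Ifng, Cxcl9 and Cxcl10 lay under the filter. Not called in either genotype were Irf1 (-0.01 and 0.26), Gbp2 (0.00 and 0.03), Gbp3 (0.06 and 0.45), Gbp7 (-0.42 and -0.15), Irgm1 (0.26 and 0.21), Iigp1 (0.47 and 0.68) and Ifngr1 (-0.29 and -0.00). Tap1 in wild type was lost without wild-type PBS replicate 3 or wild-type HDM replicate 2 or 3. Leaving out the 3 samples with muscle signal kept 1 wild-type HDM sample. In that fit the wild-type calls of Ciita, Tap1, Socs1, Ccl17, Birc3, Lag3, Psmb8, Lgals9 and Esam were lost. The KO calls of Ccl17, Ifngr2 and Icam1 were lost in it as well. Without the 2 samples with the lowest actin ratio, the wild-type calls of Irf8 (limma adjusted p = 0.061), Spib (0.055), Btla (0.13), Lgals9 (0.12), Lag3 (0.055), Ciita (0.054), Psmb8 (0.095) and Klf4 (0.062) were lost. So were the KO calls of Fscn1 (0.068), Ccl17 (0.079), Ifngr2 (0.10), Esam (0.064), Icam1 (0.10) and Igtp (0.058). Of 8 genes of the IL-4 and IL-13 pathway 1 was called in each genotype, Socs1 in wild type and Jak3 (0.94) in KO; Il4 had 0.69 and 0.65, Il4ra 0.27 and 0.29, and Stat6 0.08 and 0.03, none called.

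Markers of some other cell types rose with the members. Of 6 NK cell markers tested 0 were called in wild type and 1 in KO. Of 6 eosinophil and neutrophil markers tested 0 were called in either genotype. The 16 macrophage and monocyte markers summed to 4874 to 5306 in wild-type PBS, 10538 to 12618 in wild-type HDM, 5244 to 5321 in KO PBS and 10527 to 11140 in KO HDM. Of 15 tested 7 were higher in wild type, and 7 higher and 1 lower in KO (median log2 effects 0.43 and 0.32). Those called higher included Cd68 (1.76 and 1.57), Mrc1 (1.68 and 1.63) and Chil3 (2.74 and 2.53). Not all markers of this list rose. Mean signals of Car4 after PBS and HDM were 828 and 731 (wild type), and 1025 and 675 (KO). Those of Krt79 were 73.0 and 71.5, then 113 and 110. Fabp4 had 315 and 467, then 208 and 102. The 8 B cell markers summed to 1023 to 1294, 2106 to 3403, 1493 to 1717 and 2334 to 2816 in the same order of groups as the macrophage sums, with 5 and 3 called higher. The 10 T cell markers summed to 783 to 868, 963 to 1488, 952 to 1049 and 1458 to 1714, with 2 and 4 called higher. For T cells that share CD103, the 5 markers summed to 274 to 406, 450 to 781, 304 to 389 and 663 to 809, with 2 of 4 called higher in each genotype, Cxcr6 (1.19 and 1.65) and Cd69 (0.83 and 1.09). No marker of these lists had a signal of 0 in any sample. Of 37 tested markers of the 4 lists with sums given here, 0 were called by limma for a difference between the HDM effects (3 at an unadjusted p under 0.05). The part of these cells in the members' changes was not tested.

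**Figure D4:**
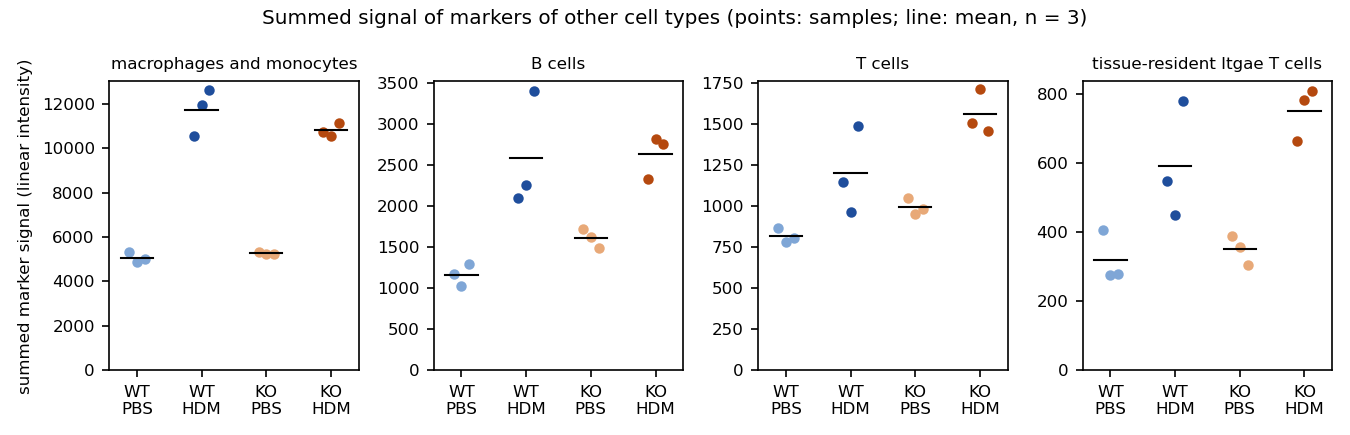
Summed signal (linear intensity, vertical axes from 0) of markers of macrophages and monocytes, B cells, T cells and tissue-resident T cells in each sample; points are samples and lines are means of 3. Macrophage and monocyte sums were 4874 to 5321 in all PBS samples and 10527 to 12618 in all HDM samples. Bright markers such as Chil3 weigh most in these sums.

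The genes whose profile lay closest to each called member over the 12 samples were found by the root mean square difference of log2 values centred on wild-type PBS, over 25159 probe sets. Itgax was closest to Acp5 (0.21), Ctsk (0.21) and Ccl6 (0.22), and Cd83 to Timp1 (0.21), F10 (0.23) and Adam8 (0.25). Batf3 was closest to Cd300lb (0.27), Ctsb (0.29) and Cd68 (0.34), and Pdcd1lg2 to Pdgfc (0.23), Slc7a2 (0.25) and Clec4a2 (0.26). Flt3 was closest to Aspm (0.32), Wdfy4 (0.38) and Zbp1 (0.38), Cd86 to Kpna2 (0.16), Ddx43 (0.17) and C6 (0.20), and Xcr1 to Tmem150b (0.17), Dab1 (0.18) and Syce2 (0.19).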

How the data were processed

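Lung RNA of 12 samples was measured on 24 arrays, and group, replicate and array set came from the sample titles. Per probe set, the authors deposited a linear intensity, scaled by them to a mean of 150 once the outer 2% at each end was trimmed, as the values show; no label names the software. Signals were converted to log2(value + 7) on set A and log2(value + 11) on set B, with pseudocounts at the 10th percentile. Probe sets with a mean log2 under the 30th percentile of their set (signals of about 32.0 and 39.2) were left out, which kept 31496. A model of 4 group means (8 residual degrees of freedom) was fitted with limma 3.58.1 in R 4.3.3, with eBayes (trend by intensity) and p-values adjusted per comparison (Benjamini-Hochberg), and was tested on simulated data. Set A and set B arrays of a sample were paired by title; over the 100 probe sets on both, 8 of 12 set A arrays matched their own set B array best. A gene of a list was read from its brightest tested probe set; the text names the 10 members, up to 4 called genes with the smallest p per list, or other genes of a list after their values were seen, and the 3 closest profiles. Members and lists were chosen with earlier results of these data known. Alternatives were another pseudocount, filter, normalization, variance model or sample subset, and the replicate number as a block. The number of arrays limits the precision. Gene names came from the platform annotation and promoter windows from RefSeq.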

Additional observations from a re-analysis of the deposited data

Results flagged for a closer look

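Itgax was singled out because its HDM effect differed between the genotypes by a test of the difference itself: KO minus wild type was -0.92 ± 0.15 on the log2 scale (SE, limma adjusted p = 0.047), from effects of 2.34 in wild type and 1.42 in KO. The wild-type PBS signals were 231 to 249.8 and the wild-type HDM signals 1156 to 1346, against 296 to 328 and 786 to 907 in KO. The adjusted p was 0.017 to 0.49 over 22 alternatives.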

How the results depend on the processing

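The count of member probe sets called for HDM in wild type was 4 to 5 when 1 sample was left out, and for HDM in KO 5 to 7. With the filter at the 50th percentile the KO count was 3, because Flt3, Xcr1, Cd86 and Batf3 were no longer tested. For the difference of the effects the count was 0 with a pseudocount of 1, no filter, the filter at the 50th percentile, quantile normalization, no intensity trend, the replicate block, without the samples with muscle signal, without the samples with the lowest actin ratio, and after leaving out any 1 sample (0 to 0). For KO against wild type after HDM it was 1 with a pseudocount of 32 and with the array sets adjusted separately; the cause was not tested. Same-numbered samples did not pair (correlations of their deviations -0.089 to 0.17, over 0.1 in 1 of 18 pairs; 4 of 12 samples matched their own number best), and with the replicate block Itgax for the difference had adjusted p = 0.13 and Xcr1 for HDM in KO 0.070; the block changed no other call of a member. Of 1224 member values under alternatives 1156 kept their direction and side of the threshold, 39 were no longer called, 5 became called, 24 uncalled values changed sign and 0 called values did. Leaving out the samples with muscle signal leaves 1 wild-type HDM sample, assumed to vary like the other groups. Quantile normalization moved the median of all probe sets by under 0.1 on the log2 scale. Members near the filter (Xcr1, Flt3, Cd80 and set A Itgae) had signals little above the weakest tested, which limits what these arrays show of them.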
